A study of Homo sapiens with 6 samples.

Results

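KISS1, the kisspeptin gene, and KISS1R, its receptor gene, are described here in ovarian carcinoma cells with and without added BARD1. They are 2 of the 58735 genes in the deposited count table and were picked out by name. KISS1 was chosen because it is among the genes that are much higher in BARD1-expressing cells, and KISS1R was taken with it as the receptor. The levels of both genes in this comparison are therefore given as a description, without a test.

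The study compared 3 control libraries with 3 libraries of BARD1-expressing cells, with the stated interest of how BARD1 acts on tumour angiogenesis pathways. All 6 are labelled as stable cells at 48 h and as high grade serous ovarian adenocarcinoma. The BARD1-expressing cells received a BARD1 reading frame by lentivirus, and their fluorescence was read as GFP-BARD1. The vector given to the control cells, and whether the transduced cells are a pool or a single clone, are not given in the sources used here. The labels conflict over the cells, which are OVCAR8ip1 in titles and culture notes but SKOV3ip1, partly as tumors, elsewhere. The effect of BARD1 and any other difference between the control and the transduced cells cannot be told apart.

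KISS1 encodes a secreted precursor that is cut and amidated into a family of short peptides, the kisspeptins, which end in arginine and phenylalanine. KISS1R is a receptor coupled to Gq/11 proteins, which activate phospholipase C, release calcium and turn on protein kinase C and the ERK kinases. In the hypothalamus the pair drives gonadotropin release. KISS1 was first described as a suppressor of metastasis in melanoma cells, and placental trophoblast is among the tissues where it is highest.

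KISS1 (ENSG00000170498) lies on the minus strand of chromosome 1, 204190341 to 204196486 (GRCh38), and KISS1R (ENSG00000116014) on the plus strand of chromosome 19, 917287 to 921015. In GENCODE release 29 the longer KISS1 transcript has 3 exons and 709 bases, and its reading frame of 417 bases starts in the second exon. The promoter window and the stretch that encodes the peptide are shown because they are the part of the gene that starts the RNA counted here and the part that carries the hormone. The promoter window is that of RefSeq (GRCh38.p14), chr1:204196442-204196741 on the minus strand, from 250 bases before to 50 after the annotated start, with capitals for the motif matches described next. In the coding stretch, from codon 66 to codon 124 of the GENCODE transcript, capitals mark the pair of basic codons at which the precursor is cut and the codons for arginine, phenylalanine, glycine and a second basic pair, where it is cut and amidated.
KISS1 promoter: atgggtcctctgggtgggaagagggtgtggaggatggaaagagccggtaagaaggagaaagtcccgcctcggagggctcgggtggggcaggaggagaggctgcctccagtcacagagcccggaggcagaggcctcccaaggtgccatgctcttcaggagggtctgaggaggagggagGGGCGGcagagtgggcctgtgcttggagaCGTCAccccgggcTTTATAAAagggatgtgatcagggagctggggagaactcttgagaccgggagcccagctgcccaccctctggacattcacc
KISS1 coding stretch: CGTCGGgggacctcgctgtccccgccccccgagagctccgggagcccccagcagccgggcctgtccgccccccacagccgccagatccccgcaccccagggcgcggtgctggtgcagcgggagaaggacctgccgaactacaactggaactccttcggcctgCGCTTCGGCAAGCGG

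The codons for arginine, phenylalanine, glycine and a basic residue occurred in 1 place of the 138-codon reading frame, and 54 codons separated the basic pair from that glycine, the length of the longest mature kisspeptin. Both strands of the promoter window were searched for 7 short motifs. The TATA box TATAAA began 29 bases before the start and was also read, overlapping, on the other strand. It was present in 11.5% of the 35116 RefSeq promoter windows of the same length. The GC box GGGCGG, the core of SP1 sites, began 73 bases before the start and is found in 45.0% of windows, and the CRE core TGACG, read on the other strand, began 44 bases before it and is found in 24.6%. No match was found for the AP-2 motif GCCNNNGGC (23.2% of windows), the full CRE TGACGTCA, which contains the CRE core (1.85%), the AP-1 motif TGANTCA (7.71%) or the EGR motif GCGNGGGCG (9.43%). These are matches of letters and not sites shown to be bound. The RefSeq table held no promoter for KISS1R.

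KISS1 was read in all 6 libraries and was far higher in those labelled BARD1-expressing. Control libraries 1 to 3 held 71, 64 and 48 KISS1 reads, and BARD1-expressing libraries 1 to 3 held 358, 849 and 454. Per 1000000 reads (CPM), with library sizes scaled by the TMM method of edgeR, the control values were 2.93, 2.80 and 2.21. The BARD1-expressing values were 28.2, 35.1 and 30.1 CPM. The groups did not overlap. Groups that do not overlap were found at 40.9% of the 15400 genes with enough reads to be tested.

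The mean KISS1 level went from 2.65 ± 0.382 CPM to 31.1 ± 3.56 CPM (SD, n = 3 each), a log2 fold change of 3.55 ± 0.127 (SE), or 11.7-fold. Among the 9 pairs of a BARD1-expressing and a control library the smallest ratio was 9.61, for replicate 1 of each, and the largest 15.8, for BARD1-expressing 2 over control 3. In bulk RNA, more cells that express KISS1 and more KISS1 RNA per cell cannot be told apart. KISS1 stood in place 46 of 13009 tested protein-coding genes by log2 fold change, next to PCDHA11 (3.58) just above it and DES (3.54) just below. Both of those genes were scarcer in control cells, at 0.275 and 0.277 CPM.

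Within each group the spread was small. The 95% exact Poisson intervals of the 3 control libraries overlapped and reached from 1.63 CPM in control 3 to 3.69 CPM in control 1. In BARD1-expressing cells the interval of library 1 (25.3 to 31.2 CPM) ended below that of library 2 (32.7 to 37.5 CPM), and library 3 (27.4 to 33.0 CPM) overlapped both. Such intervals describe the counting of reads alone, and without molecular identifiers the reads need not be separate molecules. The coefficient of variation was 14.4% in control cells and 11.4% in BARD1-expressing cells. BARD1-expressing 2, the highest for KISS1, was also the deepest library of its group.

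Per length, the KISS1 level was 3.74 ± 0.538 reads per kb per 1000000 in control cells and 43.9 ± 5.01 in BARD1-expressing cells (SD, n = 3 each). In control cells it stood at the 43.4th percentile of the tested protein-coding genes, whose median was 5.14. In BARD1-expressing cells it stood at the 92.4th percentile, against a median of 5.17. KISS1 thus went from place 7369 to place 988 of 13009.

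**Figure D1:**
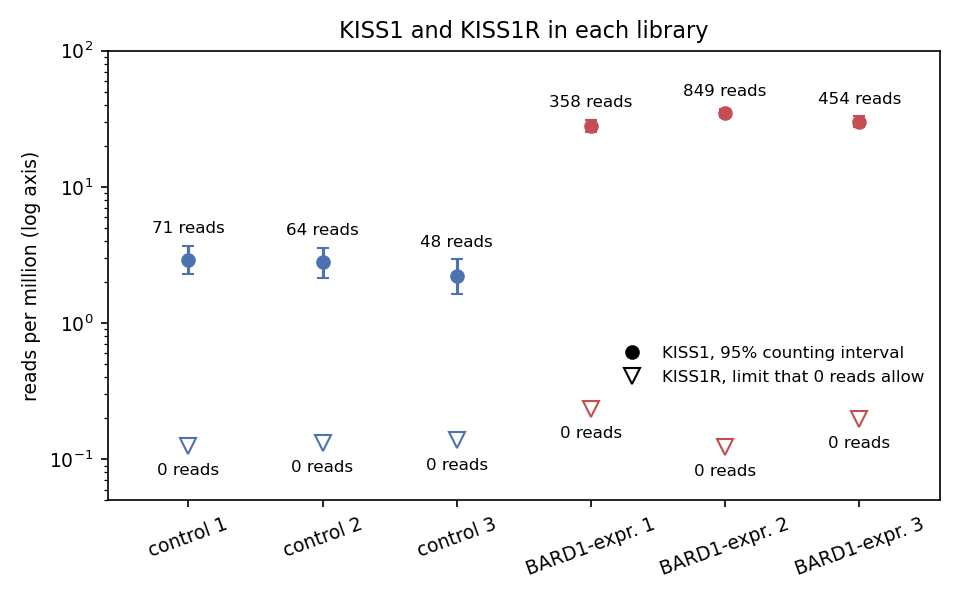
KISS1 (filled circles, TMM-scaled CPM with 95% Poisson intervals) and the limit that 0 reads allow for KISS1R (open triangles, 3 reads over the library total) in each of the 6 libraries, on a log axis. KISS1 lies between 2.21 and 2.93 CPM in the 3 control libraries and between 28.2 and 35.1 CPM in the 3 BARD1-expressing libraries, and KISS1R had no read in any of them.

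KISS1R, the receptor, was not detected in either group. Each of the 6 libraries held 0 KISS1R reads, so no fold change could be computed and the gene did not pass the filter on low counts. A count of 0 allows up to about 3 reads (the 1-sided 95% Poisson limit). That is 0.125, 0.132 and 0.137 CPM in the controls. The limit was 0.235, 0.123 and 0.198 CPM in the BARD1-expressing libraries 1 to 3. Over the 120820386 reads of all libraries together the limit was 0.0248 CPM, or 0.0148 reads per kb per 1000000. With 3 reads set for the receptor in the pooled libraries of each group, the KISS1 level per length was compared with that limit. It was 144.5-fold the limit in control cells and 1311.9-fold in BARD1-expressing cells. The counting error of KISS1 is not part of these ratios.

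No other gene of the table overlaps KISS1R, and its nearest neighbours were expressed. R3HDM4 lies 4.04 kb before it and had 34.9 ± 1.45 CPM in control cells, and ARID3A, a transcription factor gene, starts 4.77 kb after it and had 15.4 ± 2.81 CPM (SD, n = 3 each). A count of 0 in all 6 libraries was shared by 3673 of the 19951 protein-coding genes in the table (18.4%). The ligand gene was thus read in every library, and the receptor gene in none.

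The labels were checked with BARD1 itself, a gene whose protein pairs with BRCA1 in ubiquitin transfer. BARD1 had 17.1, 17.2 and 19.4 CPM in the controls and rose to 49.0, 44.3 and 45.7 CPM. The counts do not separate the introduced reading frame from the endogenous gene. Total counts were 21819199 to 23992482 in control libraries and 12744310 to 24349158 in BARD1-expressing libraries. The labels call the replicates biological without naming separate cultures, so a p-value here reflects only how these libraries vary, which may be technical. By the quasi-likelihood test of edgeR, 29.0% of the 15400 tested genes passed in either direction. Keratin genes and other markers of epithelial ovarian carcinoma summed to 3789 to 3857 CPM in control and 3755 to 4009 CPM in BARD1-expressing libraries, with 7 of 8 tested and MUC16, a defining marker, at 0. Of these, KRT7, WT1 and MUC1 were higher, and PAX8, a defining factor of the lineage, was lower (143 ± 8.98 and 91.4 ± 6.09 CPM, SD, n = 3 each). The groups overlapped for WT1, whose few reads numbered 10, 7 and 10 in the controls and 5, 43 and 11 with BARD1. The 8 endothelial markers summed to 1.98 to 2.40 CPM in control and 5.27 to 7.72 CPM in BARD1-expressing libraries (EMCN at 0). Only 2 of them, KDR and TIE1, had enough reads to be tested, and both were higher. KDR had few reads, at 5, 5 and 8 in the controls and 11, 14 and 16 with BARD1. The 9 fibroblast and pericyte markers summed to 1015 to 1083 and 840 to 888 CPM (DCN at 0). Nearly all of that sum was COL1A1, at 1054 ± 38.2 and 845 ± 24.3 CPM (SD, n = 3 each). Of the 5 tested, COL1A1 was lower, and LUM, PDGFRB and ACTA2 were higher. LUM had few reads, at 7, 3 and 3 in the controls and 14, 15 and 10 with BARD1. So did ACTA2, at 11, 3 and 7 in the controls and 8, 23 and 11 with BARD1. The entry counted as RGS5, which did not pass, is annotated as an antisense RNA and not as a protein-coding gene. The 8 immune markers summed to 1.48 to 2.15 and 1.26 to 1.99 CPM (CD3E and NKG7 at 0). The part of these cell type markers in the KISS1 values was not tested.

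Most genes around KISS1 did not pass the test. In the table, 14 protein-coding genes lie within 500 kb of KISS1, and 10 of them had enough reads to be tested, with p-values adjusted by the Benjamini-Hochberg method over all 15400 genes. Of these, 2 passed at an adjusted p under 0.05, both higher, where 29.0% of all tested genes passed in either direction. The median log2 fold change of the 10 was 0.04, against -0.00 for all tested genes. Over 10 Mb on each side, the 70 protein-coding genes averaging 5 CPM or more had a median of 0.01.

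GOLT1A, which encodes a Golgi transport protein, is the nearest gene upstream of KISS1. It lies on the same strand (chromosome 1, 204198160 to 204214092) and ends 1.67 kb before the KISS1 start. Its reads numbered 2, 7 and 3 in the controls and 7, 18 and 11 with BARD1, so its libraries hold few reads and those of control 1 and 3 are within the limit that a count of 0 allows. The groups did not overlap in CPM (log2 fold change 1.94 ± 0.538, edgeR adjusted p = 0.00815). Without control 1 it was 1.58 and missed the threshold (edgeR adjusted p = 0.0577), and without control 2 it was 2.58. The KISS1 level stayed far above that of GOLT1A in both groups, since the means of GOLT1A were 0.176 and 0.675 CPM and its gene model is the longer of both.

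PLEKHA6, 22.4 kb upstream of KISS1, went from 40.9, 38.3 and 39.2 CPM to 43.2, 48.1 and 44.5 CPM (log2 fold change 0.20 ± 0.071, edgeR adjusted p = 0.0334). That call did not hold in 8 of 11 alternative analyses. On the downstream side ETNK2 (log2 fold change -0.15 ± 0.098), SOX13 (-0.14 ± 0.111), SNRPE (0.07 ± 0.066) and ZBED6 (0.04 ± 0.416) did not pass. ZBED6 lies within ZC3H11A on the same strand, so its count is uncertain. On the upstream side PPP1R15B (0.16 ± 0.068), PIK3C2B (-0.45 ± 0.180) and the p53 regulator MDM4 (-0.10 ± 0.098) did not pass either.

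Around KISS1R, 44 protein-coding genes lie within 500 kb and 35 were tested. Of these, 9 were higher and 3 lower, or 34.3%, near the 29.0% of all tested genes, and the median log2 fold change was 0.04. Of the flanking pair, R3HDM4 passed narrowly (0.22 ± 0.077, edgeR adjusted p = 0.0334, lost in 7 of 11 alternatives) and ARID3A did not (0.27 ± 0.113, edgeR adjusted p = 0.0763). CFD, the complement factor D gene 53.7 kb away, rose from 8.20 ± 1.05 to 14.1 ± 2.96 CPM (SD, n = 3 each). GRIN3B, which encodes a glutamate receptor subunit, fell from 0.791 ± 0.156 to 0.236 ± 0.164 CPM (SD, n = 3 each), a call lost without BARD1-expressing 3 (edgeR adjusted p = 0.0723). MED16 (log2 fold change -0.05 ± 0.062), WDR18 (-0.13 ± 0.071), TMEM259 (-0.08 ± 0.063) and CNN2 (0.02 ± 0.053) did not pass. PLPPR3, 95.3 kb away and named after its value was seen, had the highest log2 fold change of the 35 (3.08 ± 0.345, edgeR adjusted p = 2.01e-07). The 3 nearest genes beyond CFD, the neutrophil protease genes ELANE and PRTN3 and AZU1, were too scarce to be tested.

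**Figure D2:**
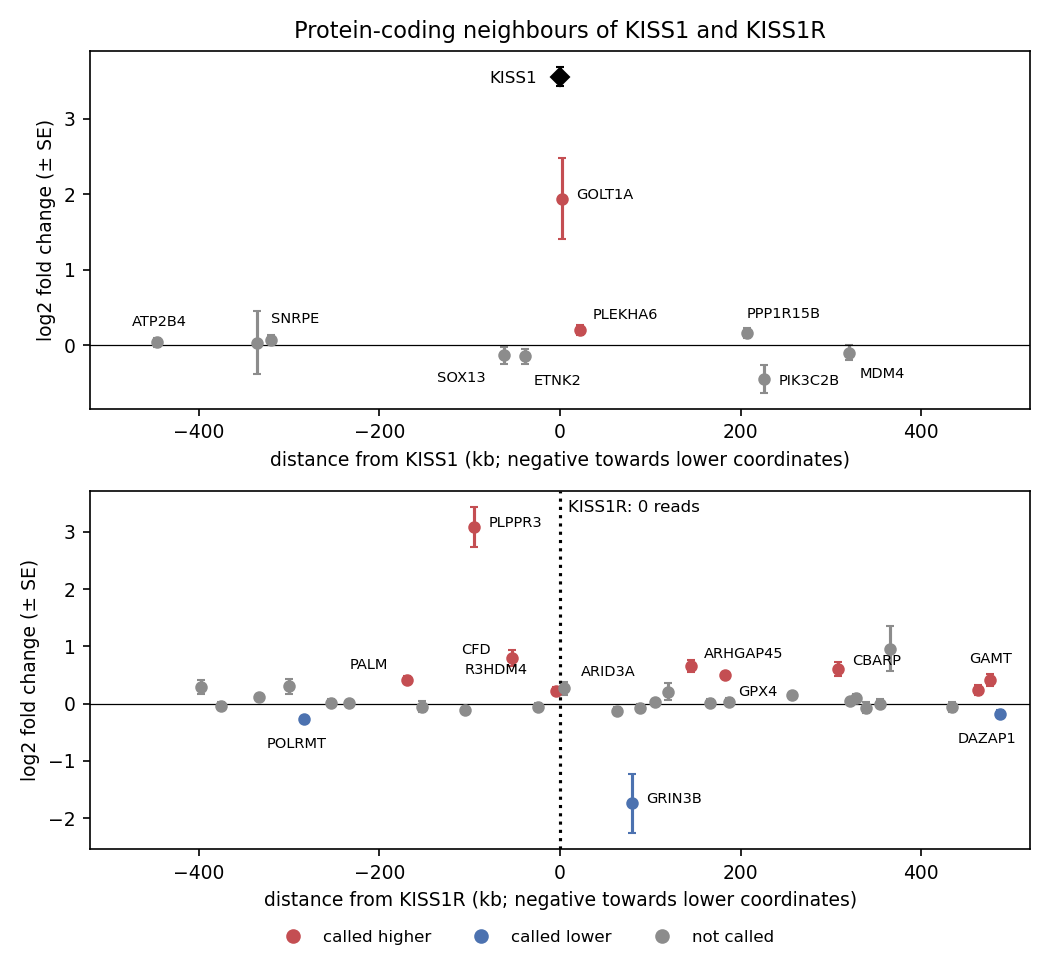
Log2 fold change (± SE, BARD1-expressing over control) of the tested protein-coding genes within 500 kb of KISS1 (upper panel) and of KISS1R (lower panel), against distance in kb. In the upper panel KISS1 (diamond, 3.55) and GOLT1A (1.94) stand above the other tested neighbours, and in the lower panel KISS1R itself has no value because it had 0 reads.

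Genes of the pathway through which KISS1R signals were expressed although the receptor was not detected. Of 23 genes of Gq/11 signalling and receptor desensitisation, 22 were tested, of which 7 were higher and 2 lower, with a median log2 fold change of 0.12 (against -0.00 for all tested genes, of which 16.5% were higher and 12.4% lower). PLCB4, a phospholipase C gene, went from 234, 231 and 241 CPM to 327, 275 and 307 CPM (log2 fold change 0.36 ± 0.056, edgeR adjusted p = 2.21e-05). The beta-arrestin gene ARRB1 rose (16.4 ± 1.22 and 23.8 ± 1.27 CPM), whereas its paralog ARRB2 fell from 56.1 ± 2.14 to 47.8 ± 1.09 CPM (SD, n = 3 each). Arrestins switch off and internalise active receptors of this kind.

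ITPR1, the gene of a calcium release channel opened by inositol trisphosphate, fell from 16.2, 17.5 and 18.1 CPM to 11.1, 12.2 and 10.2 CPM (log2 fold change -0.62 ± 0.105, edgeR adjusted p = 6.51e-05). Its groups did not overlap. The protein kinase C gene PRKCD rose by 0.37 ± 0.072 on the log2 scale, from a mean of 36.3 to 47.1 CPM. The G protein gene GNA11 rose from 98.3 ± 1.03 to 118 ± 6.65 CPM, whereas GNAQ, which encodes the other main G protein of the pathway, did not pass (log2 fold change 0.02 ± 0.056). The remaining members that passed were PLCB1 (0.45 ± 0.150), GRK2 (0.18 ± 0.063) and MAPK3 (0.18 ± 0.067), whose calls were lost in 4, 7 and 11 of 11 alternatives. PRKCB had 0 reads in all libraries.

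Among enzymes that cut, trim or amidate secreted peptides, a convertase and both carboxypeptidases were higher, and most others did not pass or were at 0. Of 14 listed, 11 were tested, of which 4 were higher and 1 lower (45.5%, beside 29.0% of all tested genes), with a median log2 fold change of 0.23. FURIN, a convertase that cuts precursors at basic residues such as those marked in the coding stretch, went from 28.5, 27.5 and 27.9 CPM to 33.2, 38.8 and 35.7 CPM (log2 fold change 0.37 ± 0.078, edgeR adjusted p = 0.000813). CPE, which encodes the carboxypeptidase that trims such basic residues, rose from 12.4, 12.9 and 13.3 CPM to 20.1, 21.0 and 23.0 CPM. PAM, the amidating enzyme that acts on the glycine, had 97.3 ± 2.28 and 93.3 ± 3.29 CPM (SD, n = 3 each) and did not pass (log2 fold change -0.06 ± 0.056).

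The carboxypeptidase gene CPD (0.28 ± 0.077) rose as well, a call lost without control 1 (edgeR adjusted p = 0.0682). The convertases of neuroendocrine granules, PCSK1 and PCSK2, had 0 reads in all libraries. Matrix metalloproteinases are reported to cut and inactivate kisspeptins. Among them MMP14 rose from 128 ± 9.93 to 160 ± 9.75 CPM and MMP16 fell from 7.82 ± 0.253 to 5.31 ± 0.512 CPM (SD, n = 3 each), MMP9 did not pass (-0.16 ± 0.311) and MMP2 had 0 reads.

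Relatives of the peptide and of its receptor were mostly too scarce to be tested. Of 14 other RFamide and galanin family genes, 4 were tested and 7 had 0 reads in every library. Of the 4 tested, 2 were higher and 1 lower (75%, beside 29.0% of all tested genes), a share that rests on few genes. With 1 library left out, 2 to 3 passed. SPX, the spexin gene, had 14, 10 and 12 control reads against 28, 42 and 37 with BARD1, and rose from 0.523 ± 0.075 to 2.13 ± 0.366 CPM (SD, n = 3 each). QRFPR, a receptor for another RFamide peptide, rose from 1.87 ± 0.201 to 3.77 ± 0.754 CPM (SD, n = 3 each), whereas its ligand gene QRFP was too scarce to be tested. Galanin itself (GAL) went from 17.6 ± 1.76 to 14.2 ± 0.943 CPM (SD, n = 3 each, edgeR adjusted p = 0.0320). That call did not hold in 5 of 11 alternatives. Of the galanin receptors, which are related to KISS1R, GALR1 and GALR3 had 0 reads and GALR2 did not pass (log2 fold change -0.87 ± 0.526).

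Most genes of the reproductive setting of kisspeptin were too scarce to be tested. Of 16 genes of gonadotropin control and sex steroid response, 5 were tested and 5 had 0 reads in every library. Of those tested, 1 passed, a share of 20% beside 29.0% of all tested genes. That was LEPR, the leptin receptor gene, which went from 2.89, 3.15 and 2.91 CPM to 6.69, 5.20 and 4.51 CPM (log2 fold change 0.86 ± 0.181, edgeR adjusted p = 0.000765). LEPR shares sequence with the overlapping gene LEPROT, which had 11891 reads against 484, so its count is uncertain. GNRH1 (0.36 ± 0.357) and the progesterone receptor gene PGR (-0.20 ± 0.100) did not pass. The neuropeptide partners PDYN and TACR3 had 0 reads, and TAC3 was too scarce to be tested.

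Most placental trophoblast genes were too scarce to be tested. Of 17 listed, 3 were tested, of which 1 passed, a share of 33.3% beside 29.0% of all tested genes. The 14 that were not tested included CGA, GCM1, ERVFRD-1 and CYP19A1, the 4 with 0 reads in all libraries. TEAD4, a transcription factor gene expressed well outside the placenta, rose (90.8 ± 2.98 against 109 ± 9.73 CPM, SD, n = 3 each). GATA3 (log2 fold change -0.02 ± 0.121) and CDX2 (0.03 ± 0.144) did not pass.

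Factors reported to act on KISS1 expression moved both ways. Of 11, 10 were tested, of which 2 were higher and 3 lower (50%, beside 29.0% of all tested genes), with a median log2 fold change of -0.04. With 1 library left out, 2 to 4 passed. NKX2-1, a homeodomain factor gene, went from 60.4, 57.2 and 55.4 CPM to 66.9, 81.1 and 69.9 CPM (log2 fold change 0.34 ± 0.071, edgeR adjusted p = 0.000735). TCF21 rose from 1.23 ± 0.442 to 2.29 ± 0.129 CPM (SD, n = 3 each), a call lost without control 1 (edgeR adjusted p = 0.0546) or control 2 (edgeR adjusted p = 0.102). TXNIP (-0.65 ± 0.220), the mediator subunit gene MED23 (-0.23 ± 0.084) and GATAD1 (-0.22 ± 0.073) were lower, and these calls were lost in 5, 5 and 4 of 11 alternatives. TFAP2A, the AP-2 alpha gene, had 76.5 ± 3.18 and 69.3 ± 0.864 CPM and SP1 112 ± 1.05 and 117 ± 0.544 CPM (SD, n = 3 each), and neither passed. ESR1 was too scarce to be tested.

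Among genes reported to respond to kisspeptin, 2 of 6 passed, both higher, a share of 33.3% that is near the 29.0% of all tested genes. EGR1, an immediate early transcription factor gene, went from 3.22, 3.02 and 2.77 CPM to 11.5, 13.7 and 10.9 CPM (log2 fold change 2.01 ± 0.145, edgeR adjusted p = 1.32e-10). It lies in a part of chromosome 5 where 86 of 97 expressed protein-coding genes within 10 Mb were higher and their median log2 fold change was 0.58. The part of this shift in the EGR1 value was not tested. CXCR4, a chemokine receptor gene, rose from 6.60, 7.49 and 7.66 CPM to 13.8, 12.9 and 12.8 CPM (log2 fold change 0.86 ± 0.116, edgeR adjusted p = 3.61e-06). FOS (0.42 ± 0.279), RCAN1 (-0.11 ± 0.093), PPARGC1A (-0.08 ± 0.423) and MMP9 did not pass.

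KISS1 belongs to the genes called metastasis suppressors, and the others moved in both directions. Of 21 such genes, 20 were tested, of which 5 were higher and 7 lower (60%, beside 29.0% of all tested genes), with a median log2 fold change of -0.10. GSN, the gelsolin gene, went from 40.8, 42.1 and 37.3 CPM to 75.7, 66.4 and 74.9 CPM (log2 fold change 0.85 ± 0.071, edgeR adjusted p = 1.67e-09). The tetraspanin gene CD9 rose from 108 ± 2.89 to 131 ± 2.90 CPM and MAP2K4, a stress kinase gene, from 25.04 ± 1.52 to 31.8 ± 3.27 CPM (SD, n = 3 each). The antisense-strand neighbour RAB14 overlaps GSN, and the pseudogene AC005244.1 lies inside MAP2K4 with 16711 reads against 3344, so both counts are uncertain. NDRG1 (0.23 ± 0.062) and CD82 (0.84 ± 0.237) passed as well. The call of NDRG1 was lost without control 1 (edgeR adjusted p = 0.0568) and that of CD82 without BARD1-expressing 2 (edgeR adjusted p = 0.134).

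Among those that fell, ARHGDIB went from 18.5 ± 0.775 to 12.4 ± 0.596 CPM (SD, n = 3 each, log2 fold change -0.57 ± 0.097, edgeR adjusted p = 7.90e-05). DLC1 fell from 199 ± 2.63 to 165 ± 6.31 CPM (SD, n = 3 each). The nucleoside diphosphate kinase genes NME2 (-0.78 ± 0.148) and NME1 (-0.21 ± 0.059) were lower too. They are paralogs and share a readthrough gene, so their counts are uncertain. The call of NME1 was lost without BARD1-expressing 3 (edgeR adjusted p = 0.0511). The other 3 were TXNIP and MED23, described above, and AKAP12 (-0.14 ± 0.049), a call lost in 4 of 11 alternatives.

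**Figure D3:**
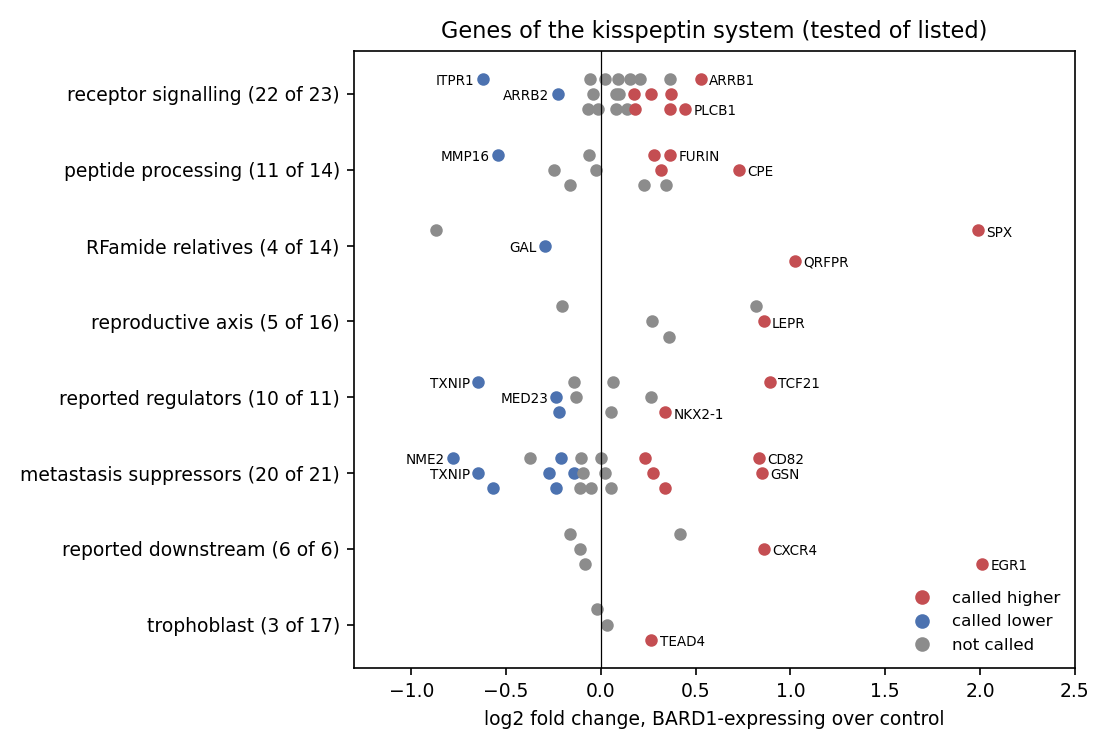
Log2 fold change (BARD1-expressing over control) of each tested gene in 8 lists around kisspeptin, with the number tested of the number listed. Points are coloured by the edgeR call at an adjusted p under 0.05, and both directions occur in the receptor signalling, peptide processing, RFamide, regulator and metastasis suppressor lists.

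The 5 protein-coding genes with a profile nearest to that of KISS1 were found by the root mean square difference of log2 CPM (prior count 2), centred on the mean of each gene over the 6 libraries. They were ANXA8L1 (0.14), MAP10 (0.14), LTA (0.16), CXCL8 (0.17) and NAP1L5 (0.19), out of 13008 genes compared. The values are a description. The prior count draws in the difference of scarce genes, and the fitted log2 fold changes of MAP10 (7.42), NAP1L5 (5.25) and LTA (4.62) were well above that of KISS1 (3.55), while those of ANXA8L1 (3.79) and CXCL8 (3.36) were closer. MAP10 had no control read, so its fitted value depends on the prior count of the fit. ANXA8L1 encodes an annexin and went from 1.03, 1.05 and 0.646 CPM to 11.9, 13.2 and 12.9 CPM, but reads of it and of its close copy ANXA8 may be mixed. The chemokine gene CXCL8 had 1.03 ± 0.148 and 10.7 ± 0.280 CPM (SD, n = 3 each).

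MAP10, LTA and NAP1L5 had at most 2 reads in any control library and 13 to 53 in the BARD1-expressing ones. Their place in this order depends on the prior count. With a prior count of 0.5 the nearest 5 were CXCL8, ANXA8L1, CHST6, ZIK1 and FBXO44, of which 2 were among the 5 above. None of these 8 genes lies within 500 kb of KISS1.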

How the data were processed

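The deposited table holds whole-number read counts per gene for 6 RNA libraries, selected with poly(T) beads per the labels' protocols. The authors made the counts on GRCh38, with the tools DESeq2 1.20.0, HISAT2 2.0.5 and featureCounts 1.5.0-p3 listed in no order in the submitters' processing notes. The labels' protocols name both directional and non-directional libraries, so reads of antisense or overlapping genes cannot be told apart. Of 58735 gene positions, 58690 equal those of GENCODE release 29.

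The test was that of edgeR 4.0.16 under R 4.3.3 (filterByExpr, which left 15400 genes, TMM, robust quasi-likelihood F test on group alone, 4 residual degrees of freedom, Benjamini-Hochberg over all tested genes, adjusted p under 0.05). DESeq2 1.42.0 was an alternative. Tested on simulated data, the fit recovered most changed genes, but false calls were more frequent than the adjusted p threshold nominally allows, so calls near the threshold are less certain. Members and lists were chosen with earlier results of these data known. Genes were named by rule: members, up to 5 neighbours per side within 500 kb, up to 3 called genes of each list per direction by p, and the 5 nearest profiles. Other genes, the 10 Mb medians and the reads of overlapping genes were added after values were seen.

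Some genes of the lists and neighbourhoods are not reported here.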

Additional observations from a re-analysis of the deposited data

How the results depend on the processing

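The log2 fold change of KISS1 was 3.44 to 3.63 with 1 library left out and 3.54 to 3.55 with other size factors, library totals, DESeq2, no filter or the replicate block. KISS1R had 0 reads, so no alternative gave a value for it. The correlations of deviations from the group means for replicates 1, 2 and 3 were -0.34, -0.03 and -0.05 over 10847 genes. They were 0.33 for control 1 with BARD1-expressing 2 and 0.32 for control 3 with BARD1-expressing 1. Deviations from a mean of 3 libraries sum to 0, so these correlations depend on each other and cannot settle whether the replicate numbers pair the libraries. The replicate block lowered the calls from 4460 to 3990. Among neighbours of KISS1, 1 gene passed in place of 2 with DESeq2, with no filter and with the replicate block, and 1 to 2 with 1 library left out. Among reported regulators 3 passed with DESeq2 and 2 to 4 with 1 library left out, in place of 5. Without the filter 2 trophoblast genes passed in place of 1, of 13 tested. CNN2, near KISS1R and not called, had a log2 fold change of 0.025, which was -0.013 without BARD1-expressing 2 and up to 0.039 with another library left out. With a prior count of 0.5, 2 of 5 nearest profiles were shared. The cause was not tested. Depth limits KISS1R and genes under about 3 reads per library.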
